A study of Mus musculus with 18 samples.

Results

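The circadian clock genes described here are Nr1d1, Nr1d2, Per1, Per2, Per3, Cry1, Cry2, Arntl, Dbp and Tef, 10 of the 21638 genes in the deposited count table. They were taken from the table by symbol in all 18 libraries, and all 10 had enough counts to be tested among 17094 genes. The set was chosen by the counts themselves, since its lead gene, Nr1d1, was low under the Ezh2 ECKO label relative to MCAO ipsilateral, so the values of that contrast are given as a description and support nothing. Messenger RNA was sequenced from endothelial cells of the adult mouse brain cortex, sorted as CD31+ CD41- CD45- cells. Wild-type (WT) mice had sham surgery or middle cerebral artery occlusion (MCAO), a surgical model of ischaemic stroke, and both hemispheres were sampled, the operated one (ipsilateral) and the other (contralateral). Hdac2lox/lox:Cdh5CreERT2 and Ezh2lox/lox:Cdh5CreERT2 mice, called Hdac2 ECKO and Ezh2 ECKO, had MCAO and gave ipsilateral libraries. Hdac2 encodes a histone deacetylase and Ezh2 the methyltransferase of Polycomb repressive complex 2, and the Cdh5 promoter drives the tamoxifen-dependent recombinase in endothelial cells. Each of the 6 groups had 3 libraries. All groups, WT included, were labelled as given tamoxifen at 75 mg per kg. For the deletions the study gave 5 doses from day 0 to day 4, and the brains were taken on day 7 of stroke. The labels gave an adult stage but no age in weeks, and no time of day of harvest. They did not say that the libraries of a group came from separate mice, so p-values measure the spread between libraries, which may be technical.

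The mammalian clock is a loop of transcription and repression that runs in most cells, brain endothelium included. The activator pair of ARNTL (also called BMAL1) and CLOCK binds E-box sequences and switches on the Period and Cryptochrome genes, whose proteins return to block that pair. In a second loop the same activators switch on Nr1d1 and Nr1d2, which encode the nuclear receptors REV-ERB alpha and beta, and these repress Arntl by competing with ROR receptors at ROR elements. DBP and TEF are output factors of the PAR bZIP family that act at D-box sequences, Per3 being a known target, and transcripts of Dbp and Arntl peak at opposite times of day.

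Promoters of the members that the results turn on are shown first, as the 250 bases upstream of the annotated start on build GRCm38.p6, 5′ to 3′ on the strand of the gene. Nr1d1 and Nr1d2 encode related receptors with different values under the Ezh2 label, and Per3 is the member whose level ran most closely with that of Nr1d2. Capitals mark matches, on either strand, to the E-box (CACGTG), the core of the ROR element (AGGTCA), the D-box (TTATGTAA or TTACGTAA) or the cAMP response element (TGACGTCA).
Nr1d1, chr11:98775378-98775627, minus strand: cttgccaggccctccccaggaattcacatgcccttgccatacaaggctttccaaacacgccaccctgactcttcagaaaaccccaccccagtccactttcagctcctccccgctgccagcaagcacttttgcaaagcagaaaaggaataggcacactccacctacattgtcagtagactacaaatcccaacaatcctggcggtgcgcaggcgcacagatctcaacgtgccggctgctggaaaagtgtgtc
Nr1d2, chr14:18239107-18239356, minus strand: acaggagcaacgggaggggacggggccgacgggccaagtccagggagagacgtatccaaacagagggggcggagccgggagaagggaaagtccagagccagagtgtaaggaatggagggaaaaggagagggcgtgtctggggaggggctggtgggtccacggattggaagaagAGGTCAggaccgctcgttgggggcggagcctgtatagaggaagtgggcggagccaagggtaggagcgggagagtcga
Per3, chr4:151044666-151044915, minus strand: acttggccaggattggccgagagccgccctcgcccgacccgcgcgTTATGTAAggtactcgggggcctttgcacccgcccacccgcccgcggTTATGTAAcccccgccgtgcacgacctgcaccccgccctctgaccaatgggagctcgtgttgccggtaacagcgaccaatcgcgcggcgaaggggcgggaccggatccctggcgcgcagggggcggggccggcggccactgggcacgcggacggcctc
The Nr1d1 window held none of these letters. The Nr1d2 window held a ROR core that begins 77 bases before the start, and 14.02% of 32851 promoters of the same length in the RefSeq table held one. The Per3 window held 2 D-boxes, which begin 205 and 158 bases before the start, and 0.02% of promoters held 2 or more. An E-box, present in 6.02% of promoters, lay in the window of Cry1 (60 bases before the start), in 1 of the 2 windows of Per1 (166 bases, with a ROR core on the other strand at 137) and in both windows of Tef (127 and 138 bases). The windows of Arntl, Dbp and Cry2 held no match. The table had 12 promoters for 9 of the 10 genes. A match is a description of the letters and not evidence of a bound site.

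Total counts ran from 25791401 to 57576255 per library, and 3 counts were worth between 0.0619 and 0.101 counts per 1000000 counts of a library (CPM, scaled by edgeR's TMM factors). Endothelial markers summed to between 7339 and 10212 CPM, while markers of neurons reached 9.17 CPM at most, of microglia and leukocytes 21.8, of astrocytes 92.9, of oligodendrocytes 169 and of mural cells 172. Red cell markers, mainly globins, summed to 19225 CPM or more (up to 297900) in 15 libraries and to between 71.0 and 671 CPM in the 3 of Ezh2 ECKO. The oligodendrocyte marker Olig1 was at 0 in 9 libraries and the red cell marker Slc4a1 in 4. Olfactory and vomeronasal receptor genes, which sorted endothelium is not known for, summed to 2083 CPM in Ezh2 ECKO library 2 and 1889 CPM in MCAO contralateral library 1, and to between 152 and 716 CPM elsewhere. The level of neither targeted gene was reduced beyond the spread of the libraries under its label. Hdac2 was at 76.8 ± 16.8 CPM (SD, n = 3) in Hdac2 ECKO and 82.9 ± 14.0 in MCAO ipsilateral, with overlap (log2 -0.11 ± 0.32, adjusted p = 0.93, edgeR). The mean of Ezh2 was higher under its own label, without overlap (log2 1.05 ± 0.86). It was 13.4 ± 5.76 CPM in Ezh2 ECKO and 6.44 ± 1.77 in MCAO ipsilateral. The counts cover whole genes, so the exons between the lox sites were not analysed here, and the groups are named below as the labels name them.

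Ranked by CPM per kilobase of feature length, averaged over the 18 libraries, Nr1d2 had the highest level of the 10 genes at 27.4, followed by Nr1d1 at 16.9 and Dbp at 13.8. Per3 (4.63), Tef (4.14), Per1 (4.12), Cry1 (3.43) and Arntl (2.80) came next, and Per2 (0.923) and Cry2 (0.474) were lowest. Most neighbours in this order were not separated. Nr1d1 exceeded Dbp in 11 of 18 libraries, Per3 exceeded Tef in 9, Tef exceeded Per1 in 9, Per1 exceeded Cry1 in 11, Cry1 exceeded Arntl in 8 and Per2 exceeded Cry2 in 10. Nr1d2 exceeded Nr1d1 in 13 libraries, Arntl exceeded Per2 in 14 and Dbp exceeded Per3 in 17. By group mean per kilobase, Dbp was above Nr1d1 in Ezh2 ECKO (8.33 and 5.57) and in Hdac2 ECKO (17.8 and 16.7). Per2 and Cry2 rested on as few as 3 and 9 counts in a library and differed 223-fold and 40.9-fold between their lowest and highest CPM. Nr1d2 had the narrowest range of the 10, 2.76-fold, followed by Tef at 3.33-fold.

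**Figure D1:**
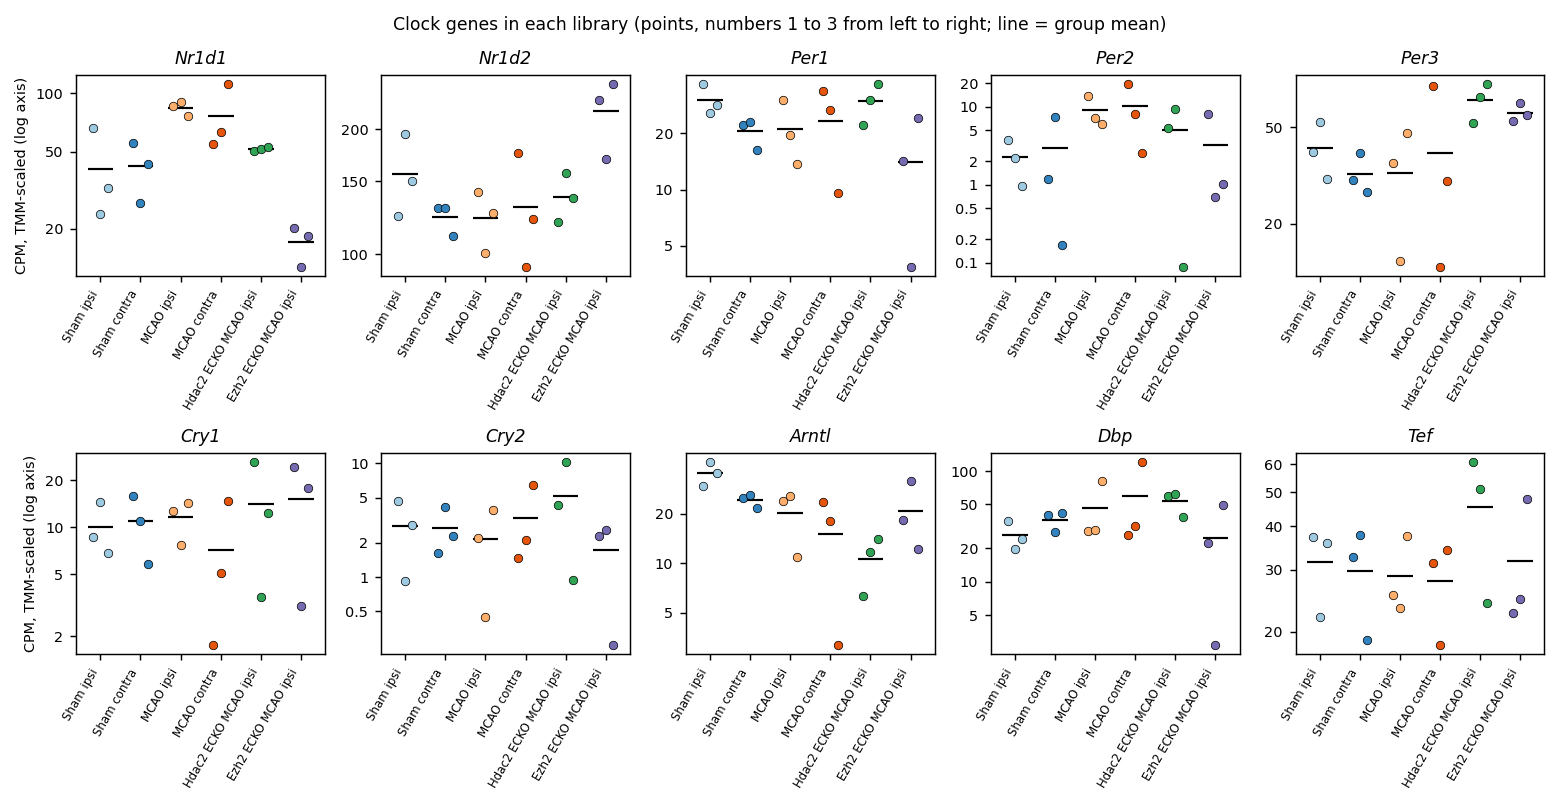
Level of each clock gene in every library, in CPM on a log axis that differs between panels. Points are single libraries in the order of their numbers, and lines are group means (n = 3). The 3 Ezh2 ECKO libraries lie below all others for Nr1d1, between 12.8 and 20.1 CPM.

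Nr1d1, which encodes REV-ERB alpha, was lower in every Ezh2 ECKO library than in any other of the 18. Its level was 20.1, 12.8 and 18.5 CPM in Ezh2 ECKO libraries 1, 2 and 3, and 85.7, 90.3 and 76.4 CPM in the MCAO ipsilateral libraries. The Hdac2 ECKO libraries held 50.1, 51.3 and 52.6 CPM, between those 2 groups and without overlap with either. In MCAO contralateral libraries the level was 54.9, 62.7 and 112 CPM. Sham mice had 66.1, 23.8 and 32.4 CPM on the ipsilateral side and 55.4, 27.3 and 43.1 CPM on the contralateral side. By group mean the order was MCAO ipsilateral (84.1 ± 7.08), MCAO contralateral (76.4 ± 30.8), Hdac2 ECKO (51.4 ± 1.24), sham contralateral (41.9 ± 14.1), sham ipsilateral (40.7 ± 22.4) and Ezh2 ECKO (17.1 ± 3.86 CPM, each SD with n = 3). The 2 MCAO groups overlapped, as did the 2 sham groups. Both sham groups also overlapped Hdac2 ECKO and MCAO contralateral. In these bulk libraries fewer cells that express a gene and less RNA of it per cell cannot be told apart.

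The difference of Nr1d1 that chose the set was a log2 value of -2.30 ± 0.41 (SE) for Ezh2 ECKO against MCAO ipsilateral. It was -1.58 ± 0.40 against Hdac2 ECKO and -1.25 ± 0.40 against sham ipsilateral, and all 3 share the Ezh2 ECKO libraries. Of the 10 members, 1 (Nr1d1) had an adjusted p under 0.05 in the first contrast, in which 1.46% of the 17094 genes did. At an unadjusted p under 0.05 there were 2 members and 19.2% of genes. Against Hdac2 ECKO edgeR called 0 of the 10 (0.123% of genes), with 2 members at an unadjusted p under 0.05 (11.2% of genes), 1 call by DESeq2 and 0 by limma voom. Against sham ipsilateral it called 0 of the 10 (0.041%), with 1 member at an unadjusted p under 0.05 (6.52%) and 0 calls by DESeq2 or limma voom. Nothing is read from these counts, because the contrast chose the set. Without sham ipsilateral 1 the last difference was -0.71 ± 0.40. The first difference ran from -2.43 to -2.15 over the fits with 1 library left out.

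Nr1d2 (chr14:18204054-18239127, minus strand, GRCm38), which encodes REV-ERB beta, did not follow Nr1d1 in those libraries. It was at 235, 170 and 257 CPM in Ezh2 ECKO and at 141, 101 and 126 CPM in MCAO ipsilateral, with no overlap, a log2 difference of 0.85 ± 0.30. Hdac2 ECKO libraries held 119, 157 and 136 CPM and MCAO contralateral libraries 175, 93.3 and 122 CPM. Sham libraries held 124, 195 and 150 CPM ipsilaterally and 129, 129 and 111 CPM contralaterally, so that 1 sham library exceeded the lowest Ezh2 ECKO library. The ratio of Nr1d1 to Nr1d2 CPM brings out the contrast between the receptors. It was 0.0856, 0.0753 and 0.0719 in the Ezh2 ECKO libraries and ran from 0.606 to 0.897 in MCAO ipsilateral. All other libraries had ratios from 0.122 (sham ipsilateral 2) to 0.917 (MCAO contralateral 3). Both genes come from the contrast that chose the set, so this too is a description. The log2 ratio also ran with the GC trend of the libraries, described below (Pearson r = 0.81, and 0.87 with group means removed).

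In WT mice the mean of Nr1d1 was higher after occlusion than after sham surgery on both sides, but neither difference passed correction over all genes. The ipsilateral difference was a log2 value of 1.05 ± 0.40 (adjusted p = 0.63, edgeR), with the 3 MCAO libraries above the 3 sham libraries, and 1.61 ± 0.43 without sham ipsilateral 1. These MCAO libraries are also the ones against which the set was chosen. The contralateral libraries were not part of that choice, and there the difference was 0.87 ± 0.40 (adjusted p = 0.92), with the lowest MCAO library at 54.9 CPM and the highest sham library at 55.4 CPM. Without MCAO contralateral 3 it was 0.49 ± 0.42. Over both sides together the 6 MCAO libraries had a median of 81.1 CPM (54.9 to 112) and the 6 sham libraries 37.7 CPM (23.8 to 66.1), a log2 difference of 0.96 ± 0.28 (adjusted p = 0.20). This last value passed the threshold by DESeq2 (adjusted p = 0.0167). In edgeR it did so without MCAO contralateral 1 (adjusted p = 0.0491), one of the libraries of high olfactory receptor counts. The MCAO ipsilateral libraries are part of this comparison too, so for Nr1d1 it is not independent of the choice of the set. If the sides with one number came from one mouse the 12 libraries are not independent, and with both sides of a number summed the difference was 0.96 ± 0.37 (adjusted p = 1.00). The side differed little for Nr1d1, by 0.14 ± 0.39 in MCAO and -0.04 ± 0.39 in sham, and these differed from each other by 0.18 ± 0.56 (adjusted p = 0.97).

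None of the 10 clock genes had an adjusted p under 0.05 by edgeR in any comparison of the WT groups or of Hdac2 ECKO. For MCAO against sham the share of all tested genes called was 0% ipsilaterally and 0% contralaterally, and 1 member, Nr1d1, had an unadjusted p under 0.05 on each side, as did 7.08% of all genes ipsilaterally and 4.41% contralaterally. Over both sides 0.152% of genes were called, and 2 members, Nr1d1 and Per2, had an unadjusted p under 0.05, against 9.09% of all genes. Between the sides the share called was 0% in MCAO, 0% in sham and 0% for the difference of the sides, with 0 members at an unadjusted p under 0.05 (3.08%, 1.85% and 3.38% of all genes). Hdac2 ECKO against MCAO ipsilateral had 0.0117% of genes called and again 0 members at an unadjusted p under 0.05 (9.85%). DESeq2 called 0 members in these comparisons except Nr1d1 over both sides, and limma voom called 0 in each.

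Members whose groups did not overlap were 3 of 10 for MCAO against sham ipsilaterally (27.7% of all genes) and 0 of 10 contralaterally (9.65%) or over both sides (1.42%). There were 0 of 10 between the sides in MCAO (5.37%), 2 of 10 between the sides in sham (15.4%) and 2 of 10 for Hdac2 ECKO against MCAO ipsilateral (19.9%). For Ezh2 ECKO against MCAO ipsilateral there were 3 of 10 (29% of all genes). Against Hdac2 ECKO there were 2 (12.1%) and against sham ipsilateral 3 (13.7%). Counts of 0 to 3 in 10 are near these shares of the whole table.

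**Figure D2:**
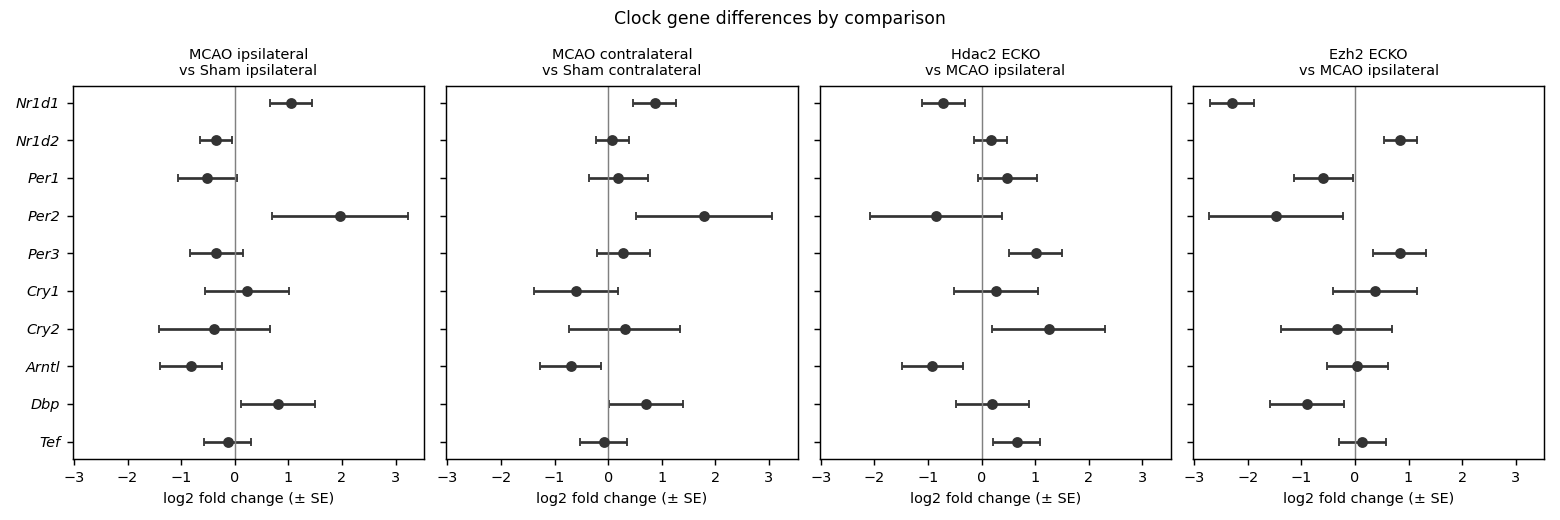
Log2 difference of each clock gene, with its SE as bars, in 4 comparisons, 3 of which share the MCAO ipsilateral libraries. Nr1d1 lies above 0 in both MCAO comparisons (1.05 and 0.87) and at -2.30 for Ezh2 ECKO, where Nr1d2 lies at 0.85.

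Arntl (chr7:113207465-113314126, plus strand), the activator that the REV-ERB receptors repress, had its highest group mean in the sham ipsilateral libraries. They held 29.7, 41.3 and 35.5 CPM, against 24.0, 25.6 and 10.9 CPM in MCAO ipsilateral, with no overlap and a log2 difference of -0.82 ± 0.57 (adjusted p = 0.77). It was -0.43 ± 0.54 with the olfactory receptor level as a covariate and -0.48 ± 0.63 without MCAO ipsilateral 3. Sham contralateral libraries lay below sham ipsilateral ones as well, at 21.8 to 26.1 CPM, also without overlap (0.55 ± 0.57 for ipsilateral against contralateral, adjusted p = 1.00, and 0.28 ± 0.52 with that covariate). MCAO contralateral libraries were uneven, with 23.7, 18.1 and 3.17 CPM. Hdac2 ECKO libraries had the lowest group mean, 10.7 ± 3.96 CPM (SD, n = 3; 6.28, 11.7 and 14.0), overlapping MCAO ipsilateral through MCAO ipsilateral 3 (-0.92 ± 0.57, adjusted p = 0.63). Ezh2 ECKO libraries, in which Nr1d1 was lowest, held 18.3, 31.9 and 12.1 CPM of Arntl, a difference of 0.04 ± 0.57 from MCAO ipsilateral (-0.59 ± 0.58 with the covariate). Over both sides Arntl differed by -0.76 ± 0.40 between MCAO and sham (adjusted p = 0.61).

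Among the Period genes, which encode the repressors that set the phase of the loop, Per2 was low and variable while Per1 and Per3 were steadier. Per2 (chr1:91415982-91459324, minus strand) was at 13.7, 7.19 and 6.03 CPM in MCAO ipsilateral and 3.73, 2.17 and 0.963 CPM in sham ipsilateral. The groups did not overlap, but the error was wide (1.97 ± 1.27, adjusted p = 0.75). Contralaterally they overlapped, with 19.7, 8.02 and 2.53 CPM after MCAO and 1.18, 7.43 and 0.168 CPM after sham surgery (1.78 ± 1.26, adjusted p = 0.92). Over both sides Per2 differed by 1.88 ± 0.90 (adjusted p = 0.55), and by 1.40 ± 0.89 without both libraries of high olfactory receptor counts. In Hdac2 ECKO the level was 5.35, 9.42 and 0.0882 CPM, the last from 3 counts, and in Ezh2 ECKO 7.98, 0.683 and 1.01 CPM. No order of these groups can be read for Per2.

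Per3 (chr4:151003652-151044665, minus strand), a D-box target, was highest in the deletion groups. It was at 52.0, 66.7 and 75.9 CPM in Hdac2 ECKO and 53.4, 62.8 and 56.1 CPM in Ezh2 ECKO, against 35.5, 13.9 and 47.4 CPM in MCAO ipsilateral. Neither deletion group overlapped MCAO ipsilateral. The log2 difference was 1.01 ± 0.49 for Hdac2 ECKO (adjusted p = 0.51, edgeR) and 0.83 ± 0.49 for Ezh2 ECKO. MCAO contralateral library 1, with 74.1 CPM, stood apart from its group (13.2 and 29.9 CPM) and also had high olfactory receptor counts. Sham libraries held between 27.1 and 52.8 CPM. With the olfactory receptor level as a covariate the Hdac2 ECKO difference was 0.80 ± 0.39 and that of Ezh2 ECKO 0.29 ± 0.41. Without MCAO ipsilateral 2 the Hdac2 ECKO difference was 0.65 ± 0.52. Per3 lies within the longer gene Camta1 on the same strand, without shared exon bases.

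Per1 (chr11:69095217-69109960, plus strand), which also responds quickly to hormones and light, did not separate MCAO from sham. It was at 30.3, 19.6 and 13.8 CPM in MCAO ipsilateral and 36.9, 25.7 and 28.3 CPM in sham ipsilateral (-0.51 ± 0.55, adjusted p = 0.84). Sham contralateral libraries, at 22.1, 23.0 and 16.3 CPM, lay below all sham ipsilateral ones (0.56 ± 0.55 for ipsilateral against contralateral, adjusted p = 1.00). Hdac2 ECKO held 22.1, 30.0 and 36.9 CPM and MCAO contralateral 33.8, 26.8 and 9.60 CPM. Ezh2 ECKO held 14.3, 3.87 and 24.1 CPM, and its lowest value came from library 2, the one of high olfactory receptor counts.

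The Cryptochromes, partners of the Period proteins in repression, varied widely between libraries of one group. Cry1 (chr10:85131700-85185064, minus strand) was at 8.64, 14.4 and 6.82 CPM in sham ipsilateral and 12.8, 7.72 and 14.4 CPM in MCAO ipsilateral (0.22 ± 0.79, adjusted p = 0.95). Within Hdac2 ECKO it ran from 3.55 to 26.1 CPM and within Ezh2 ECKO from 3.13 to 24.2 CPM, each spanning the whole range of both ipsilateral WT groups. MCAO contralateral libraries held 1.76, 5.10 and 14.6 CPM. Cry2 (chr2:92403646-92434043, minus strand) had group means from 1.72 ± 1.28 (Ezh2 ECKO) to 5.18 ± 4.74 CPM (Hdac2 ECKO, SD, n = 3). Its differences in the 7 tested comparisons had SEs above 1 except over both sides, where it differed by -0.04 ± 0.73 (adjusted p = 1.00), so changes of severalfold in Cry2 were not detectable at this spread.

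The output factors Dbp and Tef showed no difference that held up between groups, and Dbp was high in 2 WT libraries. Dbp (chr7:45705088-45710203, plus strand) was at 28.6, 29.5 and 81.1 CPM in MCAO ipsilateral and 26.2, 31.6 and 121 CPM in MCAO contralateral, so that the library numbered 3 stood apart on both sides of the occluded mice. Sham libraries held 35.4, 19.7 and 24.5 CPM ipsilaterally and 39.7, 28.2 and 41.5 CPM contralaterally. MCAO against sham differed by 0.81 ± 0.69 ipsilaterally (adjusted p = 0.80) and 0.71 ± 0.69 contralaterally (0.92). Hdac2 ECKO held 59.5, 62.4 and 38.3 CPM. Ezh2 ECKO held 22.4, 2.67 and 49.7 CPM, with the low value again in library 2. Tef (chr15:81802421-81826863, plus strand) lay between 18.3 and 61.0 CPM in all libraries. Its largest difference among the tested comparisons was 0.66 ± 0.44 for Hdac2 ECKO against MCAO ipsilateral (61.0, 51.1 and 24.2 against 25.5, 23.4 and 37.6 CPM, adjusted p = 0.65).

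Within the set the closest relation was an opposite one, between Dbp and Arntl. Across the 18 libraries their log2 CPM had a Pearson r of -0.72 and a Spearman rho of -0.81, and r was -0.83 after group means were removed and -0.63 without the 2 libraries of most extreme Arntl. MCAO contralateral 3 had the most Dbp (121 CPM) and the least Arntl (3.17 CPM), a Dbp to Arntl ratio of 38.1, and MCAO ipsilateral 3 followed among the WT libraries with 7.45. The 4 other MCAO libraries had ratios from 1.11 to 1.75 and the 6 sham libraries from 0.477 to 1.91. In Hdac2 ECKO the ratio was 9.48, 5.35 and 2.74, above all sham libraries, and in Ezh2 ECKO 1.22, 0.0839 and 4.10. The libraries of one group thus differed in the balance of these antiphase genes. With group means removed, r with the log2 olfactory receptor CPM was 0.58 for Arntl and -0.58 for Dbp. With the GC trend described below, r was -0.53 for Arntl and 0.49 for Dbp. The part of these library measures was not tested. The time of day at which each mouse was killed was not given in the labels, so its part in these values was not tested.

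Nr1d2 and Per3 ran together (r = 0.68, rho = 0.73, and 0.72 with group means removed). Nr1d1 ran against Nr1d2 (r = -0.70), but less within groups (-0.27), and with Dbp (r = 0.65, 0.56 within groups). The libraries differed in depth and in the GC trend described below. With the log2 total count of a library r was 0.64 for Nr1d1, -0.61 for Nr1d2, -0.72 for Per3 and 0.54 for Dbp. The part of depth, of olfactory receptor counts and of the GC trend in the correlations between members was not tested, and these correlations carry no test.

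**Figure D3:**
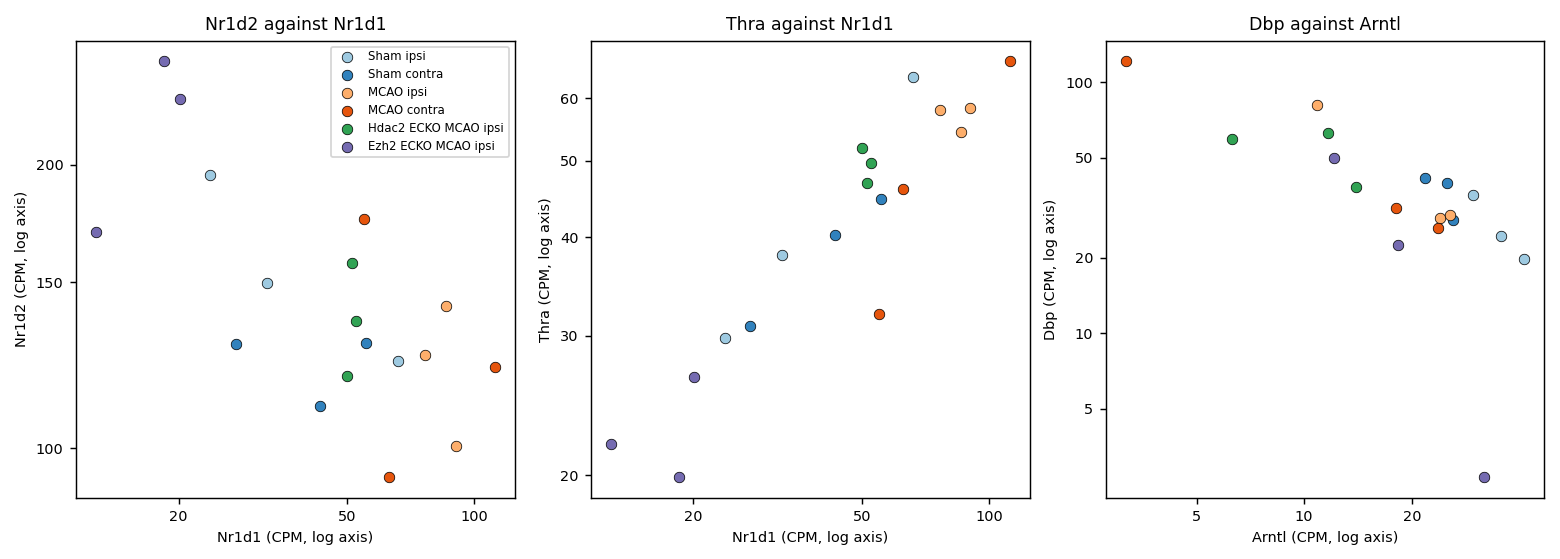
Levels of 3 pairs of genes in the 18 libraries, in CPM on log axes, with points coloured by group. Nr1d2 and Nr1d1 run in opposite directions (r = -0.70), Thra and Nr1d1 together (r = 0.93), and Dbp and Arntl in opposite directions (r = -0.72), with MCAO contralateral 3 at the top left and Ezh2 ECKO 2 at the bottom right.

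The genes whose pattern across the 18 libraries was most like that of Nr1d1 were Gadd45g (r = 0.93), Thra (0.93), Gapdh (0.91), Ppp1r15a (0.91) and Dda1 (0.90), out of 7813 genes whose mean reached 10 CPM. Gadd45g and Ppp1r15a encode stress-response proteins, Gapdh a glycolytic enzyme and Thra the thyroid hormone receptor alpha. Thra is the neighbour of Nr1d1 on the opposite strand. Nr1d1 lies at chr11:98767932-98775333 on the minus strand of GRCm38, and its exons share 263 bases with those of Thra (chr11:98768157-98768419), which is 8.5% of the exon bases of Nr1d1. Whether reads were counted by strand was not given in the sources used here, so reads from the shared stretch cannot be told apart. Thra was at 22.8 ± 3.46 CPM in Ezh2 ECKO and 56.8 ± 2.14 in MCAO ipsilateral (SD, n = 3), a log2 difference of -1.32 ± 0.36, smaller than that of Nr1d1. Among the other members, Dbp shares 539 exon bases, 18.0% of its own, with Sphk2 on the opposite strand.

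A trend of the libraries with the GC content of genes moved with the level of Nr1d1. The longest transcript of Nr1d1 holds 56.8% G and C, more than 88.2% of the tested genes. That of Nr1d2 holds 41.8%, above 18.3% of genes (median gene 48.4%). For each library the rank correlation, over genes, of GC content with the deviation of a gene from its 18-library mean was taken as its GC trend. This trend comes from gene levels and does not measure the base composition of the reads. The trend was 0.280, 0.328 and 0.371 in MCAO ipsilateral and -0.0832, -0.378 and -0.246 in Ezh2 ECKO. Across libraries it had r = 0.77 with Nr1d1 and -0.72 with Nr1d2, and 0.76 and -0.60 with group means removed. For Per3 and Dbp r was -0.68 and 0.54, and -0.60 and 0.49 with group means removed. With the trend removed from every library, the Nr1d1 difference of Ezh2 ECKO from MCAO ipsilateral was -1.81 ± 0.35 and that of Nr1d2 was 0.59 ± 0.28. The Hdac2 ECKO difference of Nr1d1, -0.71 ± 0.40 (adjusted p = 0.57, edgeR), was -0.43 ± 0.34 with the trend removed. Its reference is again the MCAO ipsilateral libraries, against which the set was chosen. The MCAO difference over both sides was 0.90 ± 0.24 with the trend removed. Olfactory receptor counts also ran with Nr1d1 (r = -0.59) and Nr1d2 (r = 0.58), and with them as a covariate the Ezh2 ECKO difference of Nr1d1 was -1.92 ± 0.38. Without both libraries of high olfactory receptor counts it was -2.10 ± 0.42. The part of the red cell markers, which were lower in all 3 Ezh2 ECKO libraries than in any other library, was not tested.

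**Figure D4:**
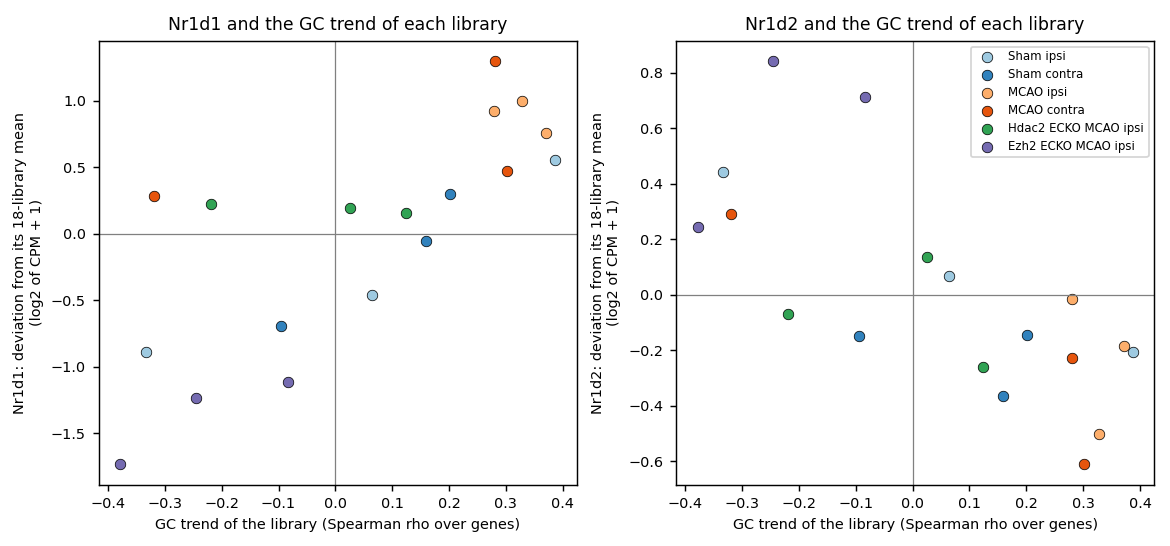
Deviation of Nr1d1 and Nr1d2 from their mean over the 18 libraries, in log2(CPM + 1), against the GC trend of each library (Spearman rho over genes, no unit). Nr1d1 lies higher in libraries of a positive trend (r = 0.77) and Nr1d2 lower (r = -0.72), while the Ezh2 ECKO libraries lie at the low end for Nr1d1.

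Other genes of the clock pathway gave no call in the WT comparisons. The list of further loop genes (Clock, Npas2, the ROR receptors, Nfil3, Hlf, Bhlhe40 and others) had 10 of 11 genes tested, and edgeR, the one tool run for these lists, called 0. For MCAO against sham its median log2 difference was -0.13 ipsilaterally, beside -0.09 for all genes, and 0.06 contralaterally, beside 0.17. At an unadjusted p under 0.05 there were 1 of 10 genes ipsilaterally (7.08% of all genes) and 4 of 10 contralaterally, all 4 higher after MCAO (4.41% of all genes). Bhlhe40, a repressor at E-boxes, was at 153, 137 and 91.3 CPM in MCAO ipsilateral and 75.1, 89.1 and 87.3 CPM in sham ipsilateral, without overlap (0.60 ± 0.35, adjusted p = 0.75), and at 294, 187 and 180 CPM in Hdac2 ECKO (0.79 ± 0.36 against MCAO ipsilateral, adjusted p = 0.48). Clock, the partner of ARNTL, was lower in MCAO ipsilateral (55.0, 32.8 and 47.8 CPM) than in sham ipsilateral (72.9, 114 and 87.3 CPM), without overlap (-1.01 ± 0.39, adjusted p = 0.63). It was at 63.4, 63.3 and 136 CPM in Hdac2 ECKO (0.95 ± 0.39, adjusted p = 0.44) and 96.2, 174 and 113 CPM in Ezh2 ECKO (1.50 ± 0.39 against MCAO ipsilateral). Rora, which encodes a receptor that competes with REV-ERB, differed by -0.60 ± 0.34 between MCAO and sham ipsilaterally (adjusted p = 0.74). Ciart, a further repressor of the loop named after its values were seen, was at 9.41, 0.683 and 0.950 CPM in Ezh2 ECKO and 19.5, 38.3 and 16.2 CPM in MCAO ipsilateral, a log2 difference of -2.74 ± 0.84 in the direction of Nr1d1.

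Genes that handle the clock proteins and their partners gave no call. Of 16 kinase, ligase and other turnover genes, all tested, 0 were called by edgeR in any of the 10 comparisons. For MCAO against sham 0 of the 16 had an unadjusted p under 0.05 on either side (7.08% and 4.41% of all genes), with medians of -0.03 ipsilaterally (-0.09 for all genes) and -0.17 contralaterally (0.17 for all genes), where 12 of 16 lay below 0. For Hdac2 ECKO against MCAO ipsilateral 1 of the 16 did (9.85% of all genes), with a median of 0.21 beside 0.11. Skp1a and Gsk3b, among those of highest level, differed by 0.49 ± 0.31 and 0.45 ± 0.31 between Hdac2 ECKO and MCAO ipsilateral (adjusted p = 0.63 and 0.66). The 6 genes of the corepressor that REV-ERB recruits, all tested, also had 0 calls by edgeR, and 0 at an unadjusted p under 0.05 in the WT and Hdac2 ECKO comparisons. Their most abundant members, Ncor1, Gps2 and Tbl1x, differed by 0.57 ± 0.31, -1.27 ± 0.68 and -0.75 ± 0.59 in that comparison (adjusted p = 0.56, 0.56 and 0.71). Of the clock output list, 17 of 18 genes were tested and 0 were called by edgeR in the WT and Hdac2 ECKO comparisons. In the contrast that chose the set 1, Cdkn1a, was called lower in Ezh2 ECKO than in MCAO ipsilateral (1.46% of all genes were called). At an unadjusted p under 0.05 for MCAO against sham there were 5 of 17 ipsilaterally (7.08% of all genes), 3 contralaterally (4.41%) and 7 over both sides (9.09%), of which 6 were higher after MCAO. For Hdac2 ECKO against MCAO ipsilateral 3 did, all lower (9.85%). Cdkn1a, an inhibitor of the cell cycle, was at 34.7, 24.9 and 16.7 CPM in Ezh2 ECKO and at 196, 415 and 47.2 CPM in MCAO ipsilateral (log2 -3.11 ± 0.64).

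Glucocorticoid response and immediate early genes were listed because hormones and acute stimuli act on the Period genes from outside the loop. These lists, like the others, were drawn up with earlier results of these data known, so their calls and counts are a description. Of 12 glucocorticoid response genes, all tested, 0 were called by edgeR for MCAO against sham, with 5 at an unadjusted p under 0.05 ipsilaterally (7.08% of all genes) and a median log2 difference of 1.60 beside -0.09 for all genes, 7 lying above 0 and 5 below. Contralaterally there were 3 (4.41% of all genes), the median was 0.83 beside 0.17, and 11 of 12 lay above 0. Mt2, a metallothionein, was at 370, 475 and 391 CPM in MCAO ipsilateral and 135, 70.1 and 140 CPM in sham ipsilateral (1.84 ± 0.49, adjusted p = 0.49), and at 99.6, 56.8 and 104 CPM in Ezh2 ECKO. Sult1a1, a sulfotransferase, was at 265, 318 and 118 CPM in MCAO ipsilateral, 61.3, 72.4 and 73.7 CPM in sham ipsilateral (1.76 ± 0.49, adjusted p = 0.51), 51.2, 66.8 and 47.2 CPM in Hdac2 ECKO and 50.0, 100 and 17.6 CPM in Ezh2 ECKO. Mt2 and Sult1a1 were the 2 genes of the list called lower in Ezh2 ECKO than in MCAO ipsilateral (1.46% of all genes were called). That contrast chose the set, so these calls are a description. Of 16 immediate early genes, all tested, 2 were called higher in Hdac2 ECKO than in MCAO ipsilateral. They were the 2 genes called there in the whole table. At an unadjusted p under 0.05 there were 10 of the 16, all higher (9.85% of all genes), and 14 of 16 lay above 0. Nr4a1 was at 269, 192 and 177 CPM against 46.5, 46.0 and 50.8 CPM (2.15 ± 0.33, adjusted p = 0.0147), and Nr4a2 at 328, 209 and 292 CPM against 40.3, 26.3 and 47.9 CPM (2.85 ± 0.41, adjusted p = 0.0109). Both encode orphan nuclear receptors. Both were lower in MCAO ipsilateral than in sham ipsilateral, without overlap, but neither difference passed correction. Sham ipsilateral libraries held 87.3, 87.1 and 52.3 CPM of Nr4a1 (-0.66 ± 0.32 for MCAO against sham, adjusted p = 0.70, edgeR). They held 81.9, 86.9 and 81.2 CPM of Nr4a2 (-1.13 ± 0.39, adjusted p = 0.58). For Hdac2 ECKO against MCAO ipsilateral the median of the list was 1.15, beside 0.11 for all genes. Calls in the whole table numbered 0 without MCAO ipsilateral 1, MCAO ipsilateral 2 or Hdac2 ECKO 1, and 1 without Hdac2 ECKO 2. Per1, which can be induced in the same way as these genes, differed by 0.48 ± 0.55 between Hdac2 ECKO and MCAO ipsilateral (adjusted p = 0.79). For MCAO against sham edgeR called 0 of the 16 immediate early genes on either side. At an unadjusted p under 0.05, 3 were higher and 6 lower ipsilaterally (7.08% of all genes), with a median of -0.66 beside -0.09. Contralaterally 4 were higher and 0 lower (4.41%), with a median of 0.33 beside 0.17.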

How the data were processed

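Libraries of FACS-sorted cortical endothelial cells came from full-length cDNA amplification (SMART-Seq) and paired-end sequencing, per the labels' protocols. The submitters' processing notes name FastQC, cutadapt, STAR, featureCounts, DESeq2 and build mm10, without versions, roles or a strand setting. The authors deposited counts per gene. Although the file's name speaks of normalized counts, its entries are whole, their totals differ, and between 77.3% and 89.4% of counts from 1 to 20 were even, so they were taken as unscaled counts. What made most of these low counts even was not tested, so a count need not stand for a single fragment. Halved counts were among the alternatives below. No column was left unassigned. The deposited feature length of each gene gave CPM per kilobase.

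Comparisons were fitted with edgeR 4.0.16 (quasi-likelihood F-test, TMM scaling, 6 group means over all 18 libraries) on the 17094 genes that reached 10 counts in 3 or more libraries. Adjusted p-values are Benjamini-Hochberg values over these genes, and a gene was called under 0.05. The SE is the log2 difference divided by the square root of F. Over both sides, the mean of the sides was compared. The self-test used simulated counts. Members and lists were chosen with earlier results of these data known. The text names from each list its called genes (at most 3, by adjusted p) or, with none, the 3 of largest mean CPM, and the 5 genes most like Nr1d1 by Pearson r of log2(CPM + 1). A gene that this rule names is not reported here. Alternatives were RLE scaling, no filter, DESeq2 1.42.0, limma voom 3.58.1, only the groups compared, a replicate block, halved counts, the log2 CPM of 1466 olfactory and vomeronasal receptor genes as a covariate, and leaving out each library. Removal of a lowess trend on GC content, of both libraries of high olfactory receptor counts, and summing of the sides were added after seeing the data. The floor of 3 counts covers counting error only, since reads carried no molecular identifiers. Each SD and SE includes the spread between libraries.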

Additional observations from a re-analysis of the deposited data

How the results depend on the processing

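The number of the 10 clock genes called changed in 3 comparisons. For MCAO against sham over both sides it was 0, and 1 (Nr1d1) with DESeq2, and 1 without both libraries of high olfactory receptor counts (adjusted p = 0.0381), and 0 to 1 with 1 library left out, the 1 coming without MCAO contralateral 1. For Ezh2 ECKO against MCAO ipsilateral it was 1, and 2 with DESeq2, 0 with the background covariate, 2 without both libraries of high olfactory receptor counts, and 0 to 1 with 1 library left out, the 0 coming without MCAO ipsilateral 1 or 2 or Ezh2 ECKO 2 or 3 (5, 5, 24 and 8 genes called in all). For Ezh2 ECKO against Hdac2 ECKO it was 0, and 1 with DESeq2 and 0 to 1 with 1 library left out, the 1 coming without MCAO contralateral 1. The cause was not tested. Counts over all genes moved further: for Ezh2 ECKO against MCAO ipsilateral 250 genes became 1642 with DESeq2, 13 with the covariate, 79 with the GC trend removed and 1000 without both libraries, and for MCAO against sham over both sides 26 became 337 with DESeq2 and 498 without both libraries. DESeq2 called 69 genes in place of 0 for MCAO against sham ipsilaterally, 26 in place of 0 contralaterally, 244 in place of 2 for Hdac2 ECKO against MCAO ipsilateral, 659 in place of 21 for Ezh2 ECKO against Hdac2 ECKO and 189 in place of 7 for Ezh2 ECKO against sham ipsilateral. In the other comparisons no setting moved the count of members. Among the 11 member values of the tested comparisons with no overlap or an unadjusted p under 0.1, 0 of 313 alternative values had another sign. Of all 70 member values in those comparisons 37 changed sign under at least 1 of their alternatives. Deviations of the 2 sides with the same number correlated at 0.376, 0.350 and -0.127 in sham and 0.294, 0.393 and 0.0347 in MCAO. Not every value was over 0.1, the level set for pairing, so the main values carry no replicate block, and whether the sides of a number share a mouse is not known. With the replicate block the Nr1d1 difference over both sides was 1.02 ± 0.28 (adjusted p = 0.23), and the block changed no count of members, while 12 genes in place of 250 were called for Ezh2 ECKO against MCAO ipsilateral. Nr1d1 over both sides ran from 0.77 to 1.24 with 1 library left out, with adjusted p from 0.0491 to 0.53. The MCAO ipsilateral libraries, against which the set was chosen, are part of these fits.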
